A study of Mus musculus with 4 samples.

Results

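The mature neutrophils described here were 3009 of the 53463 cells kept from 4 mouse lung libraries (5.63%). A kept cell had at least 300 detected genes and at most 20% of its UMIs from mitochondrial transcripts, a UMI (unique molecular identifier) standing for 1 captured RNA molecule. A kept cell was taken as a mature neutrophil where it held a UMI of at least 4 of the 8 genes Retnlg, Cxcr2, Csf3r, G0s2, Hdc, Trem1, Il1r2 and Mmp9. It was also required to hold at most 2 UMIs of Camp and at most 2 of Ltf, which code for granule proteins of immature neutrophils. Finally it had to hold no UMI of Cd3e, Cd79a, Cdh5, Siglecf or C1qa, genes of T cells, B cells, endothelial cells, eosinophils and alveolar macrophages, and other macrophages. The members were thus chosen by the UMIs of these genes in these same libraries, so the values of these genes below are a description and no test of them is given.

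The libraries formed a pair of groups, GAL from mice with an edited Galt gene and WT from wild-type mice, with 2 libraries each. Galt codes for galactose-1-phosphate uridylyltransferase, an enzyme of galactose breakdown. The labels name no treatment, strain, age, sex or kind of edit, and they do not say whether the libraries of a group came from separate animals or from pools. The p-values therefore measure only the spread between these libraries, which may be technical. Whole lungs were washed free of blood, cut up and broken down with collagenase IV and DNase I, and single cells were then caught in droplets with the SeekOne kit.

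Neutrophils are short-lived granulocytes made in the bone marrow and released to the blood, and a large pool of them lies in the small vessels of the lung. During their growth they pack proteins into primary, secondary and tertiary granules in that order, and the transcripts of the first granules are largely gone when the mature cell leaves the marrow. Mature cells carry receptors for chemokines (Cxcr2) and for granulocyte colony-stimulating factor (Csf3r), large stores of the S100a8 and S100a9 proteins, and an oxidase that makes superoxide against microbes.

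GAL replicate 1 held 265 mature neutrophils of 12148 kept cells (2.18%, 95% exact binomial interval 1.93 to 2.46%). GAL replicate 2 held 1036 of 11887 (8.72%, 8.21 to 9.24%). WT replicate 1 held 857 of 14012 (6.12%, 5.72 to 6.53%), and WT replicate 2 held 851 of 15416 (5.52%, 5.16 to 5.89%). These intervals cover counting error only. The GAL libraries lay on both sides of the WT libraries, at 5.45% ± 4.62 against 5.82% ± 0.421 (SD, n = 2 each; exact two-sided permutation p = 1, where the smallest p this design allows is 0.333). GAL minus WT was -0.37 percentage points with all libraries and 2.90 without GAL replicate 1, so the direction of this difference rested on 1 library.

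**Figure D1:**
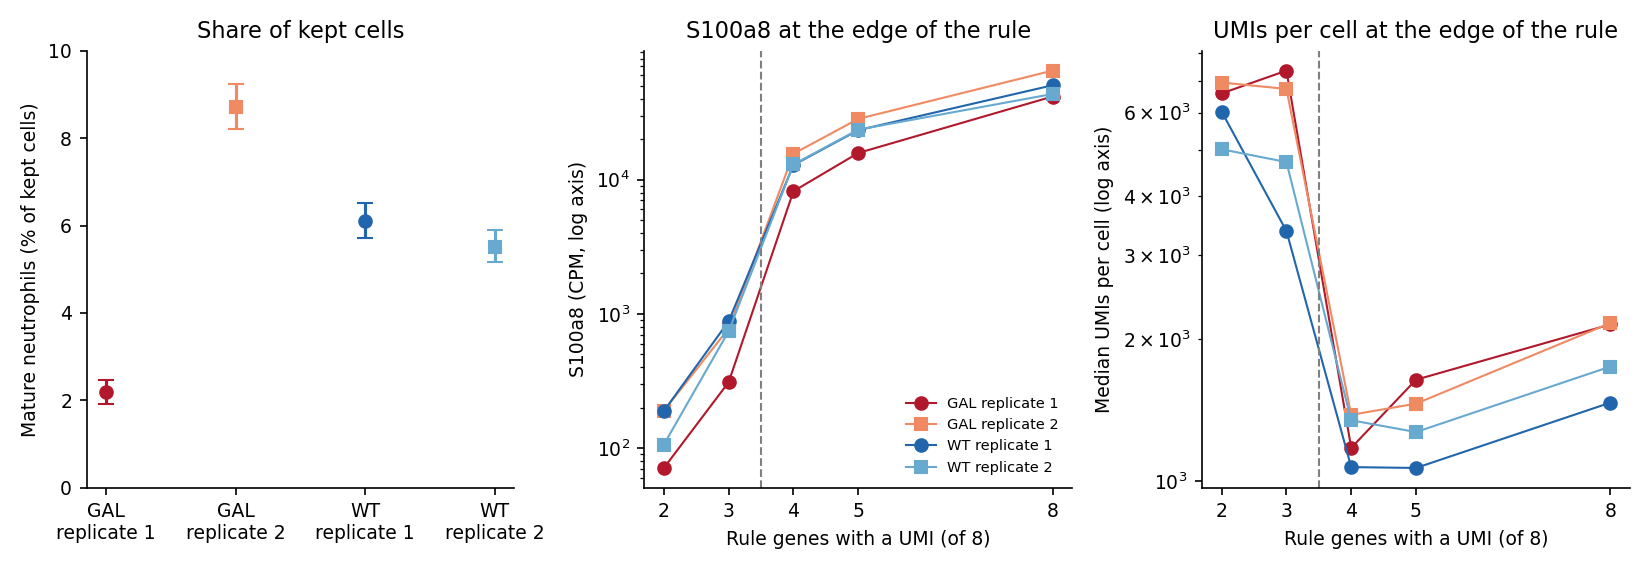
Mature neutrophils in each library as a percentage of kept cells, with 95% exact binomial intervals (left), and the S100a8 level in CPM (counts per the same total, middle) and the median UMIs per cell (right), both on log axes, of cells by how many of the 8 rule genes they held, with a dashed line at the edge of the rule. The share was lowest in GAL replicate 1 (2.18%) and highest in GAL replicate 2 (8.72%), and cells with 4 rule genes held far more S100a8 and fewer UMIs than cells with 3.

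The libraries held 56218178 to 62406681 UMIs in all, of which the mature neutrophils held 683684 and 2425050 in GAL and 1618576 and 1713169 in WT. A mature neutrophil was a cell with little RNA: the median was 1991 and 1884.5 UMIs in the GAL libraries and 1228 and 1553 in the WT libraries, beside 2472.5 to 3782.5 for all kept cells. The median number of genes was 831 and 773 in GAL and 597 and 709 in WT. Mitochondrial transcripts took a median of 0.200 to 0.262% of a member's UMIs, against 1.78 to 2.30% over all kept cells. Each pair of libraries shared 107 to 149 cell barcodes, and 1 barcode was a member in more than 1 library.

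The label was checked against the 5 markers S100a8, S100a9, Retnlg, Cxcr2 and Csf3r, of which the last 3 had also chosen the cells. CPM is a gene's UMIs scaled to the same total in every library. The level of those 3 is set by the rule and supports nothing. S100a8, which took no part in the choice, had a UMI in 96.6 to 98.4% of the members. With every cell thinned to 500 UMIs the share was 94.3 to 96.4%, beside 3.67 to 9.53% in B cells of the same libraries (12.7 to 37.2% before thinning, with medians of 1772 to 2343 UMIs). B cells do not make this protein, so their share shows the background. S100a9, the other marker outside the rule, had a UMI in 94.3 to 97.2% of the thinned members and 3.16 to 8.71% of the thinned B cells. Of the 4 eosinophil markers 2 or 3 were at 0 in each library and the list summed to at most 6.4 CPM. Of the 6 basophil and mast cell markers 4 or 5 were at 0, again with a sum of at most 6.4 CPM.

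Transcripts of other lung cells were also present in the members. Epithelial markers, which include surfactant genes, summed to 8210 and 160 CPM in the GAL libraries and 2065 and 950 in the WT libraries, beside 20551, 2351, 4956 and 3799 CPM in all other kept cells of the same libraries. Hemoglobin and other erythroid markers summed to 31 and 3655 CPM in GAL and 531 and 1322 in WT. Dendritic cell markers summed to 1798 and 1991 in GAL and 3887 and 1916 in WT, and alveolar macrophage markers, Chil3 among them, to 749 and 1659 in GAL and 3438 and 781 in WT. By these markers GAL replicate 1 had the most epithelial and the least erythroid RNA of the 4 libraries. WT replicate 1 had the most dendritic cell and alveolar macrophage RNA. Markers of interstitial macrophages were highest in GAL replicate 1, at 780 CPM against 543 in WT replicate 1.

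Some members were far larger than the rest. A total above 3 times the median of their library was found in 17 and 46 members of the GAL libraries and 69 and 58 of the WT libraries, 190 cells in all. They held 25.1 and 17.8% of the members' UMIs in GAL and 36.0 and 25.5% in WT, so a gene carried by a few large cells could set a library's level. No doublet caller was run, and whether these barcodes held more than 1 cell was not tested. For many of the results below the value without these 190 cells, called the large members from here on, is given as well. Another set, called no other-lineage UMIs below, left out members with at least 2 UMIs summed over 29 marker genes of other cell types. Members with 1 such UMI stayed in it. It kept 32 and 446 members in the GAL libraries and 444 and 451 in the WT libraries, so GAL replicate 1 lost most of its members.

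At the edge of the rule, the cells with UMIs of 3 of the 8 genes, which stayed out, held S100a8 at 309 and 778 CPM in the GAL libraries and 880 and 741 in the WT libraries. The cells with 4, which were members, held 8198 and 15601 CPM in GAL and 12865 and 12989 in WT. The excluded cells were large, with median totals of 7360 and 6733 UMIs in GAL and 3376 and 4720 in WT, against 1072 to 1382 for the cells with 4. Of the 3009 members, 182 held 4 of the genes, 369 held 5, 680 held 6, 987 held 7 and 791 held all 8. The higher of a member's Camp and Ltf counts reached the limit of 2 in 2 and 0 members of the GAL libraries and 1 and 2 of the WT libraries. Just outside, at 3, lay 1 cell of WT replicate 1, and no cell lay at 4. The limit on Camp and Ltf kept out 28 cells that met the rest of the rule.

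Galt itself could not be used to check the labels. It lies at chr4:41755228-41758695 on the plus strand (GRCm38, GENCODE annotation), and the members held 5 and 22 Galt UMIs in the GAL libraries and 14 and 13 in the WT libraries. That is 7.40 and 10.3 CPM against 8.16 and 7.40 CPM after scaling, a log2 difference of 0.26 ± 0.44 (SE). The groups overlapped, and since the labels do not say which bases were edited, a count of the transcript cannot show whether the enzyme is made. In all other kept cells Galt stood at 13.5 and 10.9 CPM in GAL and 11.5 and 11.6 in WT.

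From here on, a level in the members is CPM after TMM scaling between libraries, from UMIs summed over the members of a library. Levels are compared between libraries and not between genes, because they are not corrected for transcript length. A difference between groups is log2 of GAL over WT from edgeR's quasi-likelihood fit, given with its standard error. Across the 8255 genes tested, 0 (0%) had an adjusted p under 0.05 (edgeR, Benjamini-Hochberg), and the smallest adjusted p was 0.963. At an unadjusted p under 0.05 there were 332 genes (4.02%), 140 higher and 192 lower in GAL, and the DESeq2 Wald test called 0 genes and gave 116 at an unadjusted p under 0.05. Both GAL libraries lay above both WT libraries for 1224 genes (14.8%) and below both for 1514 (18.3%), and 50.4% of the genes had a difference above 0. These shares are the background for the counts of list genes below. Beside the median of a list stand the medians of the fits with 1 library left out that moved it most. No gene is therefore said to have risen or fallen below, and values are given as they stand. Leaving out 1 library changed this count: 157 genes were called without GAL replicate 1, 75 without GAL replicate 2, 1 without WT replicate 1 and 4 without WT replicate 2. Among the genes described below for this comparison, Ly6g, mt-Nd3, Cpne2, Lcn2, Rcsd1, Ccl5, Gzma, Fpr1, Sod2, Ccl3, Ifitm1, Siglece, Clec4e and Wfdc17 were called without GAL replicate 1, and Ly6g, mt-Nd3, Ngp, Chil3, Fkbp5 and Zbtb16 without GAL replicate 2. None of these was called with a WT library left out. In those fits 1 group had a single library, which was assumed to vary like the libraries of the other group.

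GAL replicate 2 stood apart from the other libraries in more genes than any of them. Among the 2486 genes with enough UMIs, 26 were at least 2 times higher in it than in each of the other 3 libraries, where the same count was 10 for GAL replicate 1 and 4 and 2 for the WT libraries. Wfdc17, a secreted whey acidic protein family member, read 1252 and 8696 CPM in the GAL libraries and 1364 and 1715 in the WT libraries. GAL replicate 1 thus lay below both WT libraries while GAL replicate 2 lay far above them. The same held cell by cell: after thinning to 500 UMIs, a Wfdc17 UMI was found in 85.9% of the members of GAL replicate 2 and in 35.1, 38.6 and 44.9% of those of the other libraries. Ifitm1, a membrane protein of the interferon response, read 1125 and 4853 CPM in GAL and 841 and 1543 in WT. The interleukin gene Il1f9 read 333 and 1060 CPM in GAL against 350 and 289, and Zeb2, a transcription factor of myeloid cells, 286 and 707 against 284 and 278. Hbb-bs, a hemoglobin chain, read 22.2 and 2119 CPM in GAL and 233 and 640 in WT. Whatever set this library apart moved with any difference that rests on it, and its part in them was not tested.

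The genes with the smallest p in the higher direction, among those with groups that did not overlap and a mean of at least 50 CPM, were Ly6g, mt-Nd3, Cpne2, Mmp8, Lcn2 and Rcsd1 in that order. Ly6g, the surface protein used to recognise mouse neutrophils (chr15:75155240-75159126, plus strand), read 71.1 and 107 CPM in the GAL libraries and 21.0 and 26.8 in the WT libraries. The groups did not overlap, and the difference was 1.92 ± 0.31 (edgeR, adjusted p = 0.963). Leaving out the 190 large members gave 1.79 with an adjusted p of 0.0759. Without GAL replicate 1 the difference was 2.18 (edgeR, adjusted p = 4.97e-09), and without GAL replicate 2 it was 1.57 (adjusted p = 0.00539). It was not called without WT replicate 1 (1.75; edgeR, adjusted p = 0.998) or without WT replicate 2 (2.11; edgeR, adjusted p = 0.441). Before thinning, a Ly6g UMI was found in 9.43 and 14.6% of the members in GAL and in 3.27 and 4.35% in WT. In B cells the share was at most 0.410% in any library. These shares are not corrected for depth, and GAL members had the higher median UMIs (1991 and 1884.5 against 1228 and 1553). In cells thinned as above, the members' shares were 3.77 and 4.34% in GAL and 1.17 and 1.18% in WT. Thinned B cells reached at most 0.127%, and these shares were not tested.

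Cpne2, which codes for copine 2, a protein that binds membranes with calcium, read 207 and 312 CPM in GAL and 98.5 and 130 in WT, and Rcsd1, a regulator of actin capping, 72.5 and 92.0 against 41.97 and 44.4. Mmp8, the neutrophil collagenase of secondary granules (chr9:7558456-7568485, plus strand), read 555 and 503 CPM in GAL and 244 and 282 in WT. Its groups were well apart for the depth, with a difference of 1.01 ± 0.25 (edgeR, adjusted p = 0.963). Lcn2, which codes for the iron-siderophore trapping protein lipocalin 2 (chr2:32384633-32388252, minus strand), read 1041 and 1472 CPM in GAL and 626 and 616 in WT, a difference of 1.02 ± 0.27 (edgeR, adjusted p = 0.963). Ngp, the neutrophilic granule protein (chr9:110419747-110423012, plus strand), read 181 and 22.5 CPM in GAL and 3.498 and 16.5 in WT. Only GAL replicate 1 was far from the rest for Ngp, where 16 members held all 122 UMIs and 1 of them held 55.

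Of the 14 genes in the secondary granule list, 11 passed the filter on low counts beside Camp and Ltf. The list also takes in Ly6g, Adpgk and the transcription factor Cebpe, so not all its genes code for granule proteins. With 1 library left out Ly6g ran from 1.57 to 2.18 and Adpgk from 0.82 to 1.37. Of the 11, 9 had a value above 0. Both GAL libraries lay above both WT libraries for 7 (63.6%, against 14.8% of all genes). The median difference was 0.60, beside 0.00 over all genes tested. The median was 0.69 to 0.84 with 1 library left out and 0.62 without the large members, but 0.32 after thinning to 500 UMIs, where 7 genes were tested, and 1.49 with no limit on Camp and Ltf. Hp (haptoglobin) and Cd177 (a neutrophil adhesion molecule) were on the higher side in both GAL libraries. Hp read 1463 and 1355 CPM in GAL and 823 and 1206 in WT, and Cd177 read 42.9 and 26.8 against 23.3 and 20.5. Pglyrp1, a protein that binds bacterial cell walls, overlapped, with 1121 and 1637 CPM in GAL and 942 and 1139 in WT. Chil3 went with the libraries and not with the groups, at 460 and 1475 CPM in GAL and 2653 and 430 in WT, and 68.0 to 81.0% of its UMIs lay in the large members. Chil3 is also a gene of alveolar macrophages and 1 of the markers summed above. In all other kept cells it read 1874 and 5357 CPM in GAL and 9760 and 2808 in WT (unscaled), with the same 2 libraries highest.

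Elane and Mpo, primary granule genes which only immature cells transcribe strongly, were nearly absent. Elane was at 0 in all 4 libraries and Mpo reached at most 1.14 CPM. Of the 8 genes in the primary granule list only Srgn and Lyz2, which other myeloid cells make too, passed the filter. Both stood high. Srgn read 9935 and 9852 CPM in GAL and 7596 and 11461 in WT, and Lyz2 3759 and 2389 against 2851 and 3167. Both overlapped between the groups. Among tertiary granule and secretory vesicle genes, the 10 tested beside the rule gene Mmp9 all had a value above 0. In both GAL libraries 3 lay higher (30%, against 14.8% of all genes), and the median was 0.28. That median was 0.022 without GAL replicate 2, with 7 of 10 above 0, 0.51 without GAL replicate 1 and 0.13 without the large members. Fpr1, the receptor for formylated bacterial peptides, read 158 and 396 CPM in GAL and 139 and 144 in WT (0.99 ± 0.39), a difference that was 0.17 without GAL replicate 2. Alox5ap, the partner of 5-lipoxygenase in leukotriene synthesis, read 1520 and 1884 in GAL and 1098 and 1398 in WT.

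The granule-rich neutrophils, which the limit on Camp and Ltf kept out of the members, were counted beside them. They held at least 3 UMIs of Camp or of Ltf, a UMI of both S100a8 and S100a9, and at least 2 of 10 further neutrophil genes. These 10 were the 8 rule genes, Ly6g and Ngp. There were 21 and 5 of them in the GAL libraries and 3 and 2 in the WT libraries. Of the mature and granule-rich cells together they made up 7.34 and 0.480% in the GAL libraries (95% exact interval for the first 4.60 to 11.01%) and 0.349 and 0.234% in the WT libraries. The group means were 3.91% ± 4.85 and 0.292% ± 0.0809 (SD, n = 2 each; exact two-sided permutation p = 0.333, the smallest possible). The 21 cells of GAL replicate 1 had a median of 6404 UMIs and held Ngp at 38164 CPM and Camp at 29753 CPM. Both genes took part in choosing these cells, so their levels there are a description and support nothing. The same library thus had both the most granule-rich cells and the highest Ngp in its mature cells, and whether free RNA of the one reached the other was not tested. Ngp in B cells of that library was 47.7 CPM and at most 0.402 CPM in the other libraries.

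**Figure D2:**
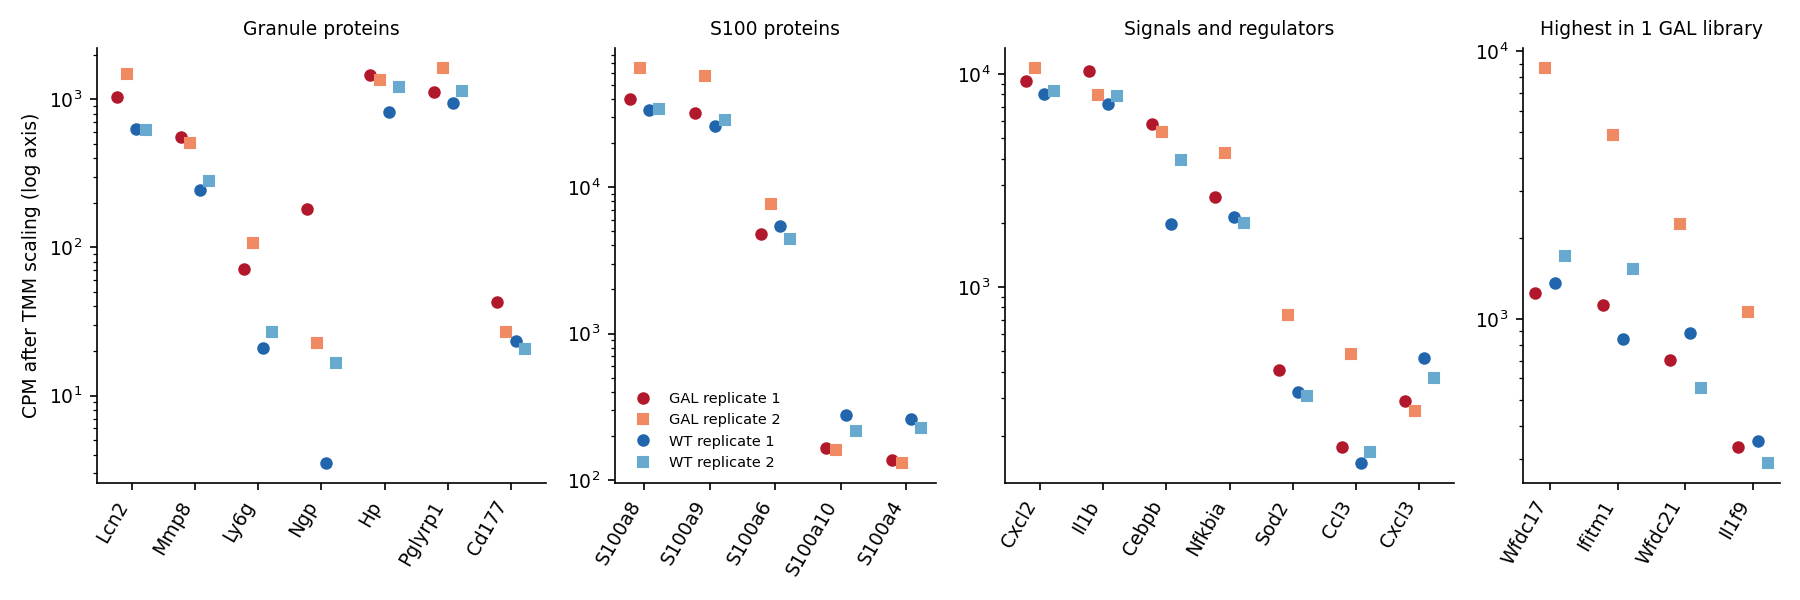
Levels of named genes in the mature neutrophils of each of the 4 libraries, as CPM on a log axis, 1 point per library. For Ly6g, Mmp8 and Lcn2 both GAL points lie above both WT points, and Wfdc17 is high in GAL replicate 2 alone.

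The chains of calprotectin, S100a8 and S100a9, took a large part of all UMIs. S100a8 (chr3:90668978-90670035, plus strand) read 40008 and 65647 CPM in GAL and 33468 and 34420 in WT, with a difference of 0.64 ± 0.32 (edgeR, adjusted p = 0.963). S100a9, its partner (chr3:90692632-90695721, minus strand), read 32198 and 57466 CPM in GAL and 26280 and 28966 in WT. The WT libraries lay close together and below both GAL libraries, but the distance came mainly from GAL replicate 2: without it the S100a8 difference was 0.24. Without the large members it was 0.43. The scaled values of the 10 genes with the highest mean CPM were also summed. They came to 18.6 and 26.98% of the nominal CPM total in GAL and 17.0 and 17.1% in WT. CPM after TMM scaling do not add up to that total, so these are not shares of the members' UMIs.

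S100a4 and S100a10, calcium-binding proteins that many other cell types make, lay lower in both GAL libraries. S100a4 read 138 and 130 CPM in GAL and 260 and 226 in WT, a difference of -0.86 ± 0.25 (edgeR, adjusted p = 0.963). Of its UMIs, 67.2 to 83.1% lay in the large members, and a UMI was found in 5.28 to 9.92% of members. Without those cells the unscaled level was 37.1 and 45.6 CPM in GAL and 95.6 and 52.5 in WT.

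Of the genes for recruitment and ageing in the circulation, 14 of 16 tested beside the rule genes had a value above 0. In both GAL libraries 5 lay higher and 1 lower (31.25 and 6.25%, against 14.8 and 18.3% of all genes). The median was 0.21. It was 0.086 without GAL replicate 2, 0.11 without WT replicate 1, 0.40 without GAL replicate 1 and 0.12 without the large members. Ccrl2, a receptor that presents chemerin and is found on activated neutrophils, read 1417 and 1745 CPM in GAL and 908 and 1073 in WT (0.68 ± 0.26). Selplg, the selectin ligand PSGL-1 used in rolling, read 745 and 979 in GAL and 511 and 677 in WT (0.54 ± 0.28). Cxcr4, the receptor that brings aged neutrophils back to the marrow, overlapped at 271 and 387 CPM in GAL and 316 and 376 in WT. The share of members with a Cxcr4 UMI after thinning to 500 UMIs did not overlap. It was 15.5 and 16.6% in GAL and 20.9 and 20.1% in WT, beside 6.08 to 12.5% of thinned B cells, and was not tested. Among the rule genes, which are given as a description, Cxcr2 read 438 and 754 CPM in GAL and 499 and 500 in WT, and Csf3r 1014 and 1947 against 1161 and 1114. The NADPH oxidase subunits overlapped in all 7 genes tested, with a median of 0.20 that was 0.027 without GAL replicate 2, 0.051 without WT replicate 2, 0.13 without WT replicate 1 and 0.073 without the large members, and turned below 0 after thinning and with no other-lineage UMIs. Cybb, its catalytic chain, read 173 and 217 CPM in GAL and 229 and 131 in WT.

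Among inflammatory mediators 18 of 22 tested beside the rule gene Il1r2 had a value above 0. In both GAL libraries 7 lay higher and 3 lower (31.8 and 13.6%, against 14.8 and 18.3% of all genes). The median was 0.40. Leaving out GAL replicate 2 brought this median to 0.11, leaving out GAL replicate 1 to 0.68, and leaving out the large members brought it to 0.21. Cxcl2, a chemokine that draws further neutrophils through Cxcr2, read 9206 and 10698 CPM in GAL and 8008 and 8333 in WT. Il1b read 10321 and 7950 CPM in GAL and 7219 and 7906 in WT. Both cytokine genes stood high in every library, with group differences near their standard errors (0.28 ± 0.26 and 0.27 ± 0.27).

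Sod2, the mitochondrial superoxide dismutase induced by NF-kB, read 406 and 739 CPM in GAL and 322 and 308 in WT (0.87 ± 0.32; edgeR, adjusted p = 0.963). Nfkbia, the inhibitor that ends NF-kB signals, read 2641 and 4245 in GAL and 2127 and 1984 in WT (0.75 ± 0.30), and Ccl3 read 178 and 484 against 149 and 167. For these 3 genes both GAL libraries lay above both WT libraries, with GAL replicate 2 the farther of the pair. Without GAL replicate 2 the values were 0.37 for Sod2, 0.37 for Nfkbia and 0.18 for Ccl3. Cxcl3 went the other way, with 290 and 260 CPM in GAL and 462 and 374 in WT (-0.60 ± 0.25). Tnf and Csf1 overlapped: Tnf read 48.8 and 230 CPM in GAL and 102 and 77.5 in WT.

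Of the innate receptors, 13 of 20 tested had a value above 0, 4 lay higher (20%, against 14.8% of all genes) and 2 lower (10%, against 18.3%) in both GAL libraries, and the median was 0.18. Without GAL replicate 2 the median turned to -0.049 with 7 of 20 above 0, without GAL replicate 1 it was 0.40, without WT replicate 2 0.36 and without the large members 0.024, so its direction rested on GAL replicate 2. Clec4e (Mincle, a receptor for mycobacterial glycolipid) read 826 and 1336 CPM in GAL and 603 and 704 in WT, and Siglece, an inhibitory sialic acid receptor, 117 and 195 against 103 and 82.0. Of the transcription factors, 13 of 15 tested were above 0, 6 lay higher and 1 lower in both GAL libraries (40 and 6.67%, against 14.8 and 18.3% of all genes), and the median of 0.17 was 0.30 without GAL replicate 1 and 0.11 without the large members. Cebpb, which drives granulocyte production under stress, read 5828 and 5337 CPM in GAL and 1964 and 3939 in WT (0.92 ± 0.35; edgeR, adjusted p = 0.963). The WT libraries differed from each other more than the GAL libraries did, and the value was 0.50 without WT replicate 1 and 1.52 without WT replicate 2.

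Survival and apoptosis genes were above 0 in 13 of 15. In both GAL libraries 4 lay higher and 1 lower (26.7 and 6.67%, against 14.8 and 18.3% of all genes). The median was 0.19. This direction rested on GAL replicate 2: without it the median was -0.13 with 6 of 15 above 0, while leaving out GAL replicate 1 gave 0.44, leaving out WT replicate 1 gave 0.29, and the members without the large ones gave 0.050. Fas, the death receptor, read 135 and 222 CPM in GAL and 111 and 125 in WT, and Mcl1, which keeps neutrophils alive, overlapped. Glucocorticoid response genes were above 0 in 10 of 12, and 6 lay higher in both GAL libraries (50%, against 14.8% of all genes). Their median was 0.28 (0.25 to 0.52 with 1 library left out, the highest without WT replicate 2 and 0.43 without GAL replicate 2). Fkbp5 read 59.2 and 18.3 CPM in GAL and 15.7 and 13.1 in WT, and Zbtb16 read 56.2 and 22.5 against 20.4 and 17.7. In both, GAL replicate 1 was far from the other 3 libraries. Ciart, a clock repressor with few UMIs, read 7.40 and 7.51 CPM in GAL and 1.17 and 0.570 in WT, and Dbp 8.88 and 8.92 against 1.17 and 3.99; over the circadian list 9 of 13 tested were above 0, with a median of 0.18 that was 0.36 without GAL replicate 2, 0.29 without GAL replicate 1 and 0.29 without WT replicate 1. Immediate early genes were above 0 in 14 of 17, and 2 lay higher in both GAL libraries (11.8%, against 14.8% of all genes). Their median of 0.22 turned to -0.029 without GAL replicate 1, with 8 of 17 above 0. It was 0.43 without GAL replicate 2 and 0.14 without WT replicate 1. Fos showed how far libraries of 1 group could lie apart, with 2934 and 1152 CPM in GAL and 1691 and 2189 in WT.

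Transcripts of the mitochondrial genome were above 0 in 12 of 13, and 9 lay higher in both GAL libraries (69.2%, against 14.8% of all genes). Their median was 0.27 (0.18 to 0.44 with 1 library left out, the highest without GAL replicate 2). mt-Nd3, a subunit of respiratory complex I, had the largest difference, with 112 and 71.8 CPM in GAL and 39.1 and 23.9 in WT (1.52 ± 0.35; edgeR, adjusted p = 0.963), although 36.6 to 59.7% of its UMIs lay in the large members. mt-Co3 read 1474 and 1372 CPM in GAL and 1024 and 878 in WT. Glycolysis and hypoxia genes were above 0 in 14 of 22. In both GAL libraries 8 lay higher and 2 lower (36.4 and 9.09%, against 14.8 and 18.3% of all genes). The median was 0.067. It was 0.12 to 0.16 with 1 library left out, 0.0049 without the large members and -0.043 after thinning. Gapdh read 836 and 1025 CPM in GAL and 502 and 711 in WT, and Gpi1, glucose phosphate isomerase, 312 and 320 against 193 and 232.

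The genes of galactose and glycogen handling, the pathway of the edited gene, were above 0 in 8 of 14 tested. In both GAL libraries 1 lay higher and 3 lower (7.14 and 21.4%, against 14.8 and 18.3% of all genes). The median was 0.13. This direction did not hold: the median was -0.35 without GAL replicate 2, with 4 of 16 above 0, -0.086 without WT replicate 1, 0.27 without GAL replicate 1, 0.20 without WT replicate 2 and 0.047 without the large members, and it was also below 0 with a minimum of 20 counts (-0.11). Galk1, galactokinase, read 4.44 and 5.16 CPM in GAL and 8.16 and 7.98 in WT. Galk1 held few UMIs, so its level was imprecise at this depth.

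Some lists leaned the other way. Of 78 cytosolic ribosomal protein genes tested, 6 were above 0 and 25 lay lower in both GAL libraries (32.1%, against 18.3% of all genes), with a median of -0.19. The median was -0.051 without GAL replicate 2, with 29 above 0, -0.095 without WT replicate 1, with 24 above 0, and -0.30 without GAL replicate 1. Of 11 MHC class I genes, 2 were above 0 and 6 lay lower in both (54.5%, against 18.3% of all genes). Their median was -0.15 (-0.22 to -0.13 with 1 library left out). B2m, the shared light chain, read 2229 and 2048 CPM in GAL and 2303 and 2496 in WT. Of 11 heat shock genes 3 were above 0 and 5 lay lower in both (45.5%, against 18.3% of all genes). Their median of -0.10 turned to 0.12 without WT replicate 2, with 6 of 11 above 0. It was -0.27 to -0.36 without any of the others. Hsp90ab1 read 790 and 583 CPM in GAL and 995 and 924 in WT.

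Cell division genes were below 0 in all 6 tested, and 5 lay lower in both GAL libraries (83.3%, against 18.3% of all genes). Top2a, needed to untangle chromosomes, read 0 and 3.28 CPM in GAL and 42.6 and 8.54 in WT. Of the 73 Top2a UMIs of WT replicate 1, 93.2% lay in large members, and 1 cell held 27. Without the large members the list's median moved from -1.33 to -0.098, without WT replicate 1 it was -0.76, and with no other-lineage UMIs it was 0.097. Other genes with low values in GAL were also carried by few cells. Ccl17, a chemokine of dendritic cells, read 115 and 125 CPM in GAL and 305 and 220 in WT, with 81.6 to 96.6% of its UMIs in the large members and a UMI in 1.51 to 8.75% of members. Ccl5 and Gzma, genes of T and NK cells, were found in 4.32 to 7.87% and 1.45 to 4.94% of members.

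**Figure D3:**
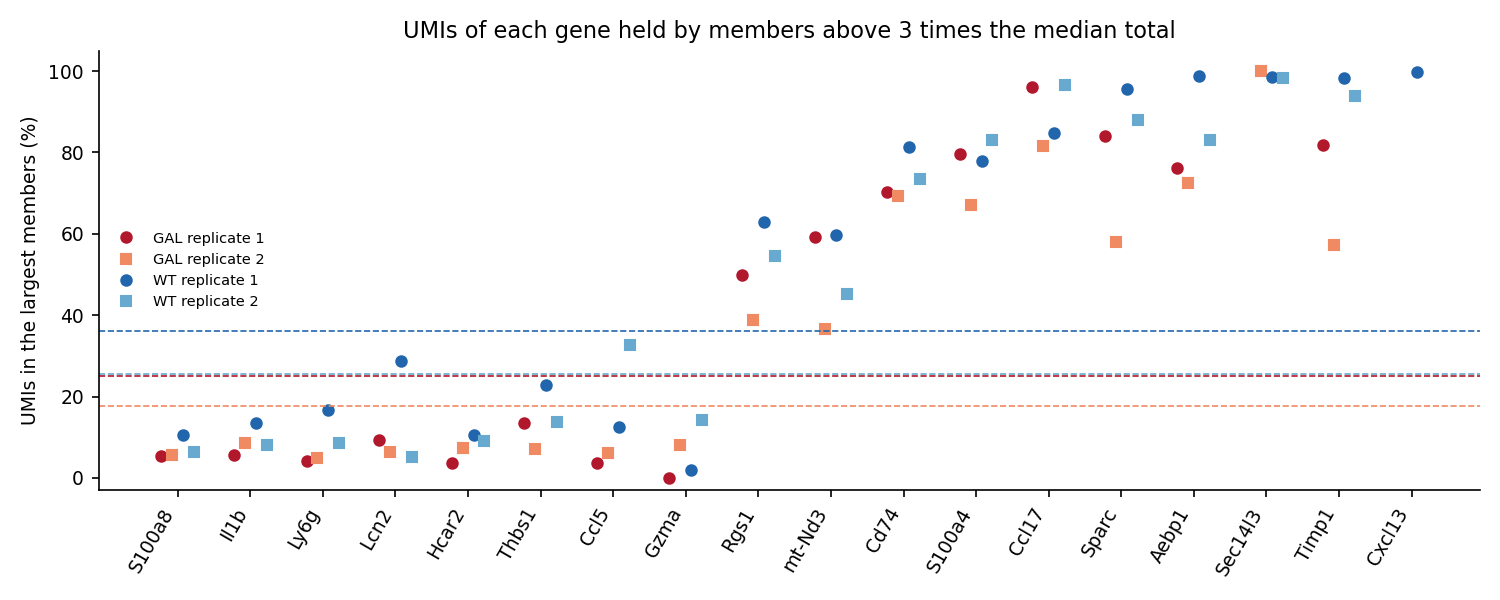
Percentage of each gene's UMIs in the mature neutrophils that lay in members with more than 3 times the median UMIs of their library, 1 point per library with at least 10 UMIs, and as dashed lines the same percentage of all the members' UMIs. Ccl17 and S100a4 lie mostly in these large members, while Ly6g, Lcn2 and S100a8 lie mostly outside them.

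Interferon response genes were above 0 in 20 of 29 tested, with a median of 0.12. In both GAL libraries 1 lay higher and 4 lower (3.45 and 13.8%, against 14.8 and 18.3% of all genes). The median turned to -0.069 without GAL replicate 2 and -0.030 without WT replicate 1, and was 0.37 without GAL replicate 1, 0.48 without WT replicate 2, 0.0060 without the large members and -0.049 with no other-lineage UMIs. Rsad2 (viperin, an antiviral enzyme) read 130 and 176 CPM in GAL and 146 and 194 in WT, and Isg15, a ubiquitin-like modifier, 486 and 479 against 303 and 545. Both overlapped between the groups.

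**Figure D4:**
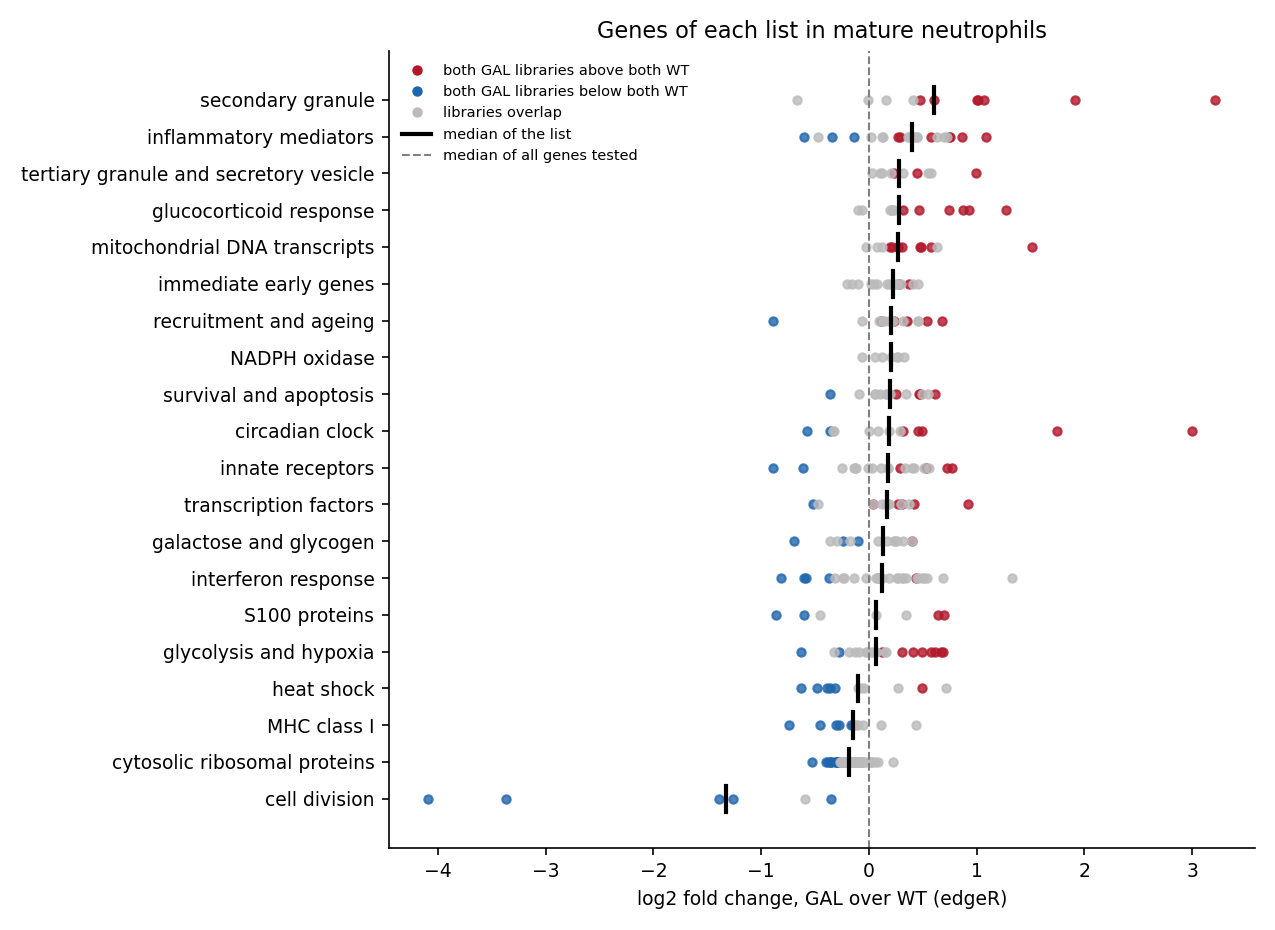
Log2 difference of GAL over WT for each tested gene of each list in the mature neutrophils, with the median of the list as a black bar and colours for genes whose libraries did not overlap between the groups. Most genes of the secondary granule list lie above 0 with a median of 0.60, and ribosomal protein and MHC class I genes lie mostly below 0.

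The members were next compared among themselves within each library. Members above 3 medians of UMIs were left out, which left 248 and 990 cells in GAL and 788 and 793 in WT. Cells were divided by the UMIs of 1 gene after thinning to 500 UMIs, and the levels of other genes were set side by side as log2 of (CPM + 10), for genes with a mean of at least 50 CPM. A gene is counted where it was higher, or lower, in all 4 libraries. Some genes would be counted so without any difference between the cells, and how many was not computed. The dividing genes were chosen after values had been seen, and these comparisons are descriptions with no test.

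The division by S100a8 set the 25% of cells with the most against the 25% with the fewest. Of 2320 genes 519 were higher and 525 lower in all 4 libraries. In GAL replicate 1 it set 63 cells against 68, where the divisions by Rsad2 and by Icam1 below each set 13 against 235. The counts of genes are therefore not comparable between the divisions. The S100a8-high cells had a median of 2187, 2187.5, 1328 and 1667 UMIs in the order of GAL replicates 1 and 2 and WT replicates 1 and 2, and the S100a8-low cells 1811.5, 1622, 1061 and 1406.5. S100a8 and S100a9 were left out of the totals from which these CPM were made. Late granule genes went with S100a8. Mmp8 read 1845 CPM in S100a8-high and 219 in S100a8-low cells of GAL replicate 1, and 727 and 152 in WT replicate 2, with a mean log2 difference of 2.60 over the 4 libraries. Lcn2 differed by 2.53, Ly6g by 2.42 and the rule gene Retnlg by 3.20. Of the 7 genes measured from the secondary granule list 6 were higher and 1, Chil3, lower in all 4 libraries. Of the 10 tertiary granule genes measured beside the rule gene Mmp9, 9 were higher. Ngp had a mean of 3.45, with a range of 1.21 to 6.64.

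Further genes that went with S100a8 were Stfa2l1 and Cstdc5, which code for cystatin-like inhibitors of cysteine proteases, Wfdc21 (2.39) and Adam8 (1.37). Stfa2l1 read 1692 and 1508 CPM in S100a8-high cells of the GAL libraries against 332 and 533 in S100a8-low cells, and 2176 and 1343 against 532 and 362 in the WT libraries. Of 16 glycolysis genes 9 were higher in all 4 libraries and 0 lower.

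Several cytokine genes were higher in the S100a8-low cells. Csf1, which codes for the macrophage growth factor, read 106 and 147 CPM in S100a8-low cells of GAL and 237 and 102 in those of WT, against 0 and 13.2, 40.1 and 30.4 in S100a8-high cells, with a mean of -2.51. Il23a, a subunit of interleukin 23, differed by -2.46, Tnf by -1.19, and Ctss, the lysosomal protease cathepsin S, by -2.15. Of 22 inflammatory mediators measured beside the rule gene Il1r2, 10 were lower and 3 higher in all 4 libraries, of 17 immediate early genes 9 were lower, and of 8 heat shock genes 7. Klf4, a transcription factor, differed by -1.64.

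The second division, by Icam1, the adhesion molecule that activated neutrophils show, gave related genes. An Icam1 UMI after thinning was found in 5.24 and 9.09% of these members in GAL and 7.99 and 3.91% in WT. Of 2174 genes 257 were higher and 183 lower in all 4 libraries, and of 22 inflammatory mediators beside Il1r2, 15 were higher and 2 lower. Tnf read 141 and 479 CPM in Icam1-positive cells of GAL and 238 and 263 in those of WT, against 32.6, 170, 57.6 and 71.8 in the others, with a mean log2 difference of 1.72. Csf1 (1.86), the fatty acid receptor Gpr84 (1.90), the survival factors Bcl2a1d (1.46) and Bcl2a1b (1.11), and the NF-kB inhibitors Tnfaip3 (0.99) and Nfkbia (0.90) were higher in all 4 libraries. S100a8 differed by -0.47 and Lyz2 by -0.66 on the same scale.

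**Figure D5:**
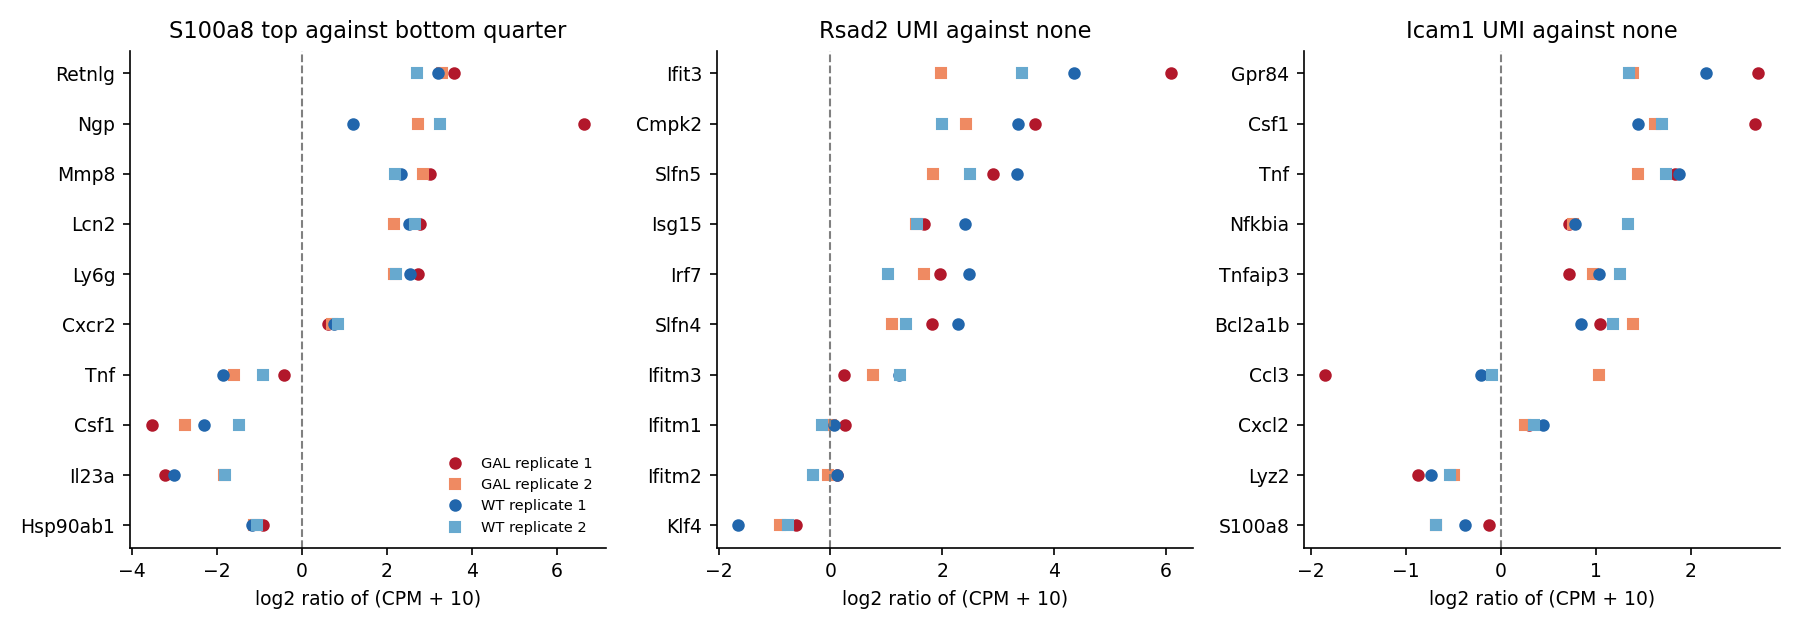
Log2 ratio of (CPM + 10) of 10 genes each between members divided by S100a8, Rsad2 or Icam1, 1 point per library, with the large members left out. Mmp8, Lcn2 and Ly6g lie to the right of 0 in all 4 libraries for S100a8, Ifit3 and Cmpk2 for Rsad2, and Gpr84, Csf1 and Tnf for Icam1.

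The third division, by Rsad2, separated the interferon response. An Rsad2 UMI after thinning was found in 13 of 248 and 68 of 990 cells in GAL (5.24 and 6.87%) and in 50 of 788 and 61 of 793 in WT (6.35 and 7.69%), beside at most 0.302% of thinned B cells. Of 2176 genes 172 were higher and 164 lower in all 4 libraries. Of the 20 interferon genes measured, 17 were higher in all 4 and 0 lower, with a median of 1.60, against -0.06 over all genes. Ifit3, a partner of the viral RNA sensor Ifit1, read 812 and 59.3 CPM in Rsad2-positive cells of GAL and 214 and 262 in those of WT, against 2.06, 7.53, 1.03 and 15.4 in the others. Isg15 read 1701 and 1215 CPM in Rsad2-positive cells of GAL and 1863 and 1748 in those of WT, against 527, 416, 343 and 591 in the others, a mean difference of 1.79. Cmpk2, the neighbour of Rsad2 on the genome and active in the same antiviral path, differed by 2.85, Oasl1 by 2.34, and the regulator Irf7 by 1.79. Ifitm1 (0.04) and Ifitm2 (-0.03), also interferon genes by name, did not go with Rsad2. Ifitm1 was among the genes that set GAL replicate 2 apart.

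The promoters of the interferon list were also read for the element that interferon-activated factors bind. The motif searched was GAAA, any 2 bases and GAAA again, on either strand (TTTC, any 2 bases and TTTC when read on the other strand), in the 250 bases before and 50 after each gene's start, from RefSeq for GRCm38.p6. Of 26 genes of the interferon list that have a promoter there, 15 held it (57.7%), against 1079 of 27025 genes with a promoter (3.99%) and 1131 of all 32851 promoters of the same length (3.44%). Of the 15 with a promoter there among Rsad2 and the 17 genes that were higher with it, 9 held it. The list was made of known interferon genes, and some of them did not go with Rsad2 or were not measured in that division. Its excess over all genes therefore describes the list and cannot bear on why genes went together in these cells. The 250 bases before the start are shown for Rsad2, the dividing gene, and for Ifit3 and Isg15, which went with it, 5′ to 3′ on the strand of the gene with the matches in capitals. The window shown for Rsad2 is chr12:26456453-26456702 on the minus strand. Those for Ifit3 and Isg15 are chr19:34583279-34583528 on the plus strand and chr4:156200819-156201068 on the minus strand.
Rsad2: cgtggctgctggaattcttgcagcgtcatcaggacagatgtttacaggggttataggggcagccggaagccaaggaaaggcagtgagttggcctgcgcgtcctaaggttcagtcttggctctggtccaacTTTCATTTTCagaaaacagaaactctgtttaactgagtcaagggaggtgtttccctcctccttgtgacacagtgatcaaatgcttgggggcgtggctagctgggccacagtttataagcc
Ifit3: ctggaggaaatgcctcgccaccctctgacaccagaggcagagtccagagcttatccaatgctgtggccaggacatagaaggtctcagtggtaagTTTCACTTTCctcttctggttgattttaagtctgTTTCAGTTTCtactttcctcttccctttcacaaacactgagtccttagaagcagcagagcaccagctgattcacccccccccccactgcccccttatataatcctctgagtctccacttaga
Isg15: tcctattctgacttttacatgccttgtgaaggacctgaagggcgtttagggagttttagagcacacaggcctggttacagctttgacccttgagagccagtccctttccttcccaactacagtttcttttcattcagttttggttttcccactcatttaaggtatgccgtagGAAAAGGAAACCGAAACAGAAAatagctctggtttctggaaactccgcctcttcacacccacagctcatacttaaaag

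The Rsad2 match begins 120 bases before the start of the gene. Ifit3 holds 2 matches, 156 and 122 bases before its start, and Isg15 holds 3 that overlap, from 78 to 66 bases before its start. The matches of Rsad2 and Ifit3 show the TTTC form on the strand of the gene and those of Isg15 the GAAA form. A match describes the letters in this window and shows no binding.

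The divisions by Cxcr4 and by Wfdc17 gave smaller differences. A Cxcr4 UMI after thinning was found in 19.35 and 17.47% of these members in GAL and 22.97 and 21.31% in WT. By Cxcr4, 194 of 2145 genes were higher and 124 lower in all 4 libraries, and no mean rise among the leading genes was above 0.59. By Wfdc17, 172 of 2165 were higher and 166 lower, and Ifitm1 differed by 0.44. The hemoglobin gene Hba-a1 or Hbb-bs was lower in the positive cells of the divisions by Rsad2, Icam1 and Cxcr4.

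The last question was whether the GAL-WT difference in the mature neutrophils differed from that in the rest of the lung. The interaction of cell set and group was tested in 1 fit with the library as a block. Against all other kept cells, 89 of 16563 genes passed (0.537%; edgeR, adjusted p under 0.05), 29 in the higher and 60 in the lower direction. Hcar2, the receptor for nicotinic acid and hydroxybutyrate that neutrophils carry, read 272 and 425 CPM in GAL members and 135 and 227 in WT members, against 22.2, 28.4, 21.0 and 39.1 in other cells (unscaled CPM). Its difference of differences was 1.36, but it was not called without WT replicate 1 (1.32; edgeR, adjusted p = 0.310), without WT replicate 2 (1.36; adjusted p = 0.068) or without the large members (1.12; adjusted p = 0.0855). Ifitm6, a myeloid relative of Ifitm1, differed by 1.35 and was called without the large members (edgeR, adjusted p = 0.0259). It was not called without GAL replicate 2 (0.99), WT replicate 1 (1.46) or WT replicate 2 (1.20). In the members it overlapped between the groups, at 146 and 205 CPM in GAL and 120 and 163 in WT (unscaled). In other cells it lay lower in both GAL libraries, at 26.2 and 28.3 CPM against 35.3 and 65.3 in WT. Fpr1 differed by 1.28, and its call was lost without GAL replicate 2 (0.82; edgeR, adjusted p = 0.186), without WT replicate 1 (1.04; adjusted p = 1) and without the large members (1.01; adjusted p = 0.218). Hbb-bt (2.62) and Hba-a2 (1.57) were called too, but they were near 0 in GAL replicate 1, where Hbb-bt had no UMI in the members, and high in GAL replicate 2. Without GAL replicate 2 both turned, to -13.98 and -6.10, and Hba-a2 was not called without WT replicate 1 (edgeR, adjusted p = 0.420), WT replicate 2 (adjusted p = 0.560) or the large members (adjusted p = 0.138).

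The genes with the lowest values in this test rested on few cells. Cxcl13 differed by -5.00 and Cxcl9 by -3.84, both chemokine genes of other cell types, because WT replicate 1 held them at 425 and 137 CPM in the members and no other library had more than 4.54 CPM of either. In that library 1 member held 686 of the 688 Cxcl13 UMIs and 1 held 215 of the 222 Cxcl9 UMIs. Without the large members 11 genes were called in place of 89, and the signs of both were reversed. Without WT replicate 1 Cxcl13 stood at -0.36 and Cxcl9 at 0.049, and neither was called (edgeR, adjusted p = 1 for each). Leaving out 1 library gave 12 to 169 calls, with 12 without WT replicate 1.

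Classical monocytes, the nearest circulating relatives, numbered 102 and 158 in GAL and 388 and 356 in WT. Their median UMIs were higher in both GAL libraries, at 6227.5 and 6254 against 3934.5 and 4888.5 in WT. The part of this difference in the values below was not tested. Against them 107 of 9574 genes passed (1.12%; edgeR, adjusted p under 0.05), 24 in the higher and 83 in the lower direction. Thbs1, which codes for the matrix protein thrombospondin 1, read 2356 and 1727 CPM in GAL members and 1673 and 2142 in WT members, and 670 and 736 in GAL monocytes against 1452 and 1959 in WT monocytes. The members overlapped between the groups while the monocytes did not, and the difference of differences was 1.61. Mindy1, which codes for a deubiquitinating enzyme, gave 2.35 in the same manner, with 95.1 and 66.8 CPM in GAL members, 64.9 and 75.9 in WT members, 18.9 and 18.7 in GAL monocytes and 65.1 and 80.9 in WT monocytes. Both were called again without the large members (edgeR, adjusted p = 0.0117 for Thbs1 and 0.00637 for Mindy1), where 9 genes passed in all. Mindy1 was called with any 1 library left out, and Thbs1 with any but WT replicate 2 (1.59; edgeR, adjusted p = 0.0648). Aebp1, a gene of fibroblasts, had -3.42, with 72.5 to 98.9% of its member UMIs in the large cells, and was not called without them (-2.04; edgeR, adjusted p = 0.521).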

How the data were processed

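RNA of single lung cells was counted in 4 libraries, 2 labelled GAL and 2 labelled WT. Per the submitters' processing notes, fastp, STAR and Seurat were used (versions not given) with mouse genome GRCm38 (mm10). The gene annotation was not given in the sources used here. Whole UMI counts, deposited by the authors as 1 matrix of 32285 genes per library, were the values taken; the lowest barcode held 500 UMIs. UMIs of the members were summed per library, since cells are not replicates, and tested with edgeR 4.0.16 in R 4.3.3 (limma 3.58.1; filterByExpr, TMM, quasi-likelihood test, Benjamini-Hochberg over all genes tested, threshold 0.05). DESeq2 1.42.0, other filters and each library left out were alternatives. Shares were compared by exact permutation with scipy 1.17.1. The tests were tested on simulated data. Doublets were not called. Gene positions come from GENCODE for GRCm38.

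The members and gene lists were chosen with earlier results of these data known. Named genes were the 5 markers, the rule genes, Camp, Ltf and Galt, the 6 genes in each direction with the smallest p among those with a mean of at least 50 CPM and groups that did not overlap, up to 4 genes of each list by p and up to 3 by level, and for differences of effect the 5 in each direction with the smallest p and a mean of at least 20 CPM in the members. Further names (Ngp, Hp, Pglyrp1, Cd177, Chil3, Wfdc17, Ifitm1, Zeb2, Il1f9, Ciart, Dbp, Fkbp5, Zbtb16, Rsad2, Isg15 and Cxcr4 among them), the genes that divide the members and the leaving out of members above 3 medians were chosen after values were seen. A few genes that these rules name are not reported here.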

Additional observations from a re-analysis of the deposited data

Results flagged for a closer look

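For 20 results the GAL-WT difference in the mature neutrophils differed from that in another cell set, by edgeR's test of the difference itself; values are log2 of GAL over WT in the members minus the same in the other cells. Calls lost with a library or the large members (above 3 medians of UMIs) left out are given for each gene here or above. By DESeq2, Hcar2 alone was called among those flagged against all other cells (Wald test, adjusted p = 0.000887). Hba-a2 was not (DESeq2 Wald test, adjusted p = 0.939), and DESeq2 gave the rest no adjusted p. Against monocytes it did not call Hba-a2 (Wald test, adjusted p = 0.340) or Hba-a1 (adjusted p = 0.0755).

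Against all other kept cells the higher values were 2.62 for Hbb-bt, 1.36 for Hcar2, 1.35 for Ifitm6, 1.28 for Fpr1 and 1.57 for Hba-a2. The hemoglobin genes Hbb-bt and Hba-a2 moved with the libraries: the members of GAL replicate 1 held 0 and 1.46 CPM (unscaled) and those of GAL replicate 2 held 299 and 589 CPM. Hbb-bt was called without the large members (2.25; edgeR, adjusted p = 1.49e-05), Hba-a2 was not (1.33; adjusted p = 0.138), and without GAL replicate 2 both were below 0. The lower values were -5.00 for Cxcl13, -3.84 for Cxcl9, -2.004 for Sec14l3, -2.36 for Timp1 and -1.98 for Cyp2f2. Timp1, an inhibitor of matrix proteases, read 16.1 and 5.77 CPM in GAL members 147 and 19.3 in WT members, and was not called without WT replicate 1 (-1.61; edgeR, adjusted p = 0.849). Without the large members none of these 5 was called (edgeR, adjusted p = 1 for each), with 0.84 for Timp1, -1.53 for Sec14l3 and -1.999 for Cyp2f2. Cyp2f2 was not called without GAL replicate 1 either (-0.99; edgeR, adjusted p = 0.194), and Sec14l3 was then at -1.06 (adjusted p = 0.0481). Sec14l3 and Cyp2f2 are genes of airway epithelium. In other cells Cyp2f2 read 129 CPM in GAL replicate 1 and 29.3 to 33.8 in the other libraries.

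Against classical monocytes the higher values were 2.35 for Mindy1, 3.73 for Hba-a2, 3.88 for Hba-a1, 1.61 for Thbs1 and 2.03 for Rrp1b. Without GAL replicate 2 Hba-a2 (0.86; edgeR, adjusted p = 0.930) and Hba-a1 (2.59; adjusted p = 0.196) were not called, and without WT replicate 2 Thbs1 (adjusted p = 0.0648) and Rrp1b (adjusted p = 0.0718) were not. Rrp1b, a nucleolar protein, read 76.1 and 30.9 CPM in GAL members, 33.4 and 59.5 in WT members, 31.5 and 16.2 in GAL monocytes and 50.3 and 98.8 in WT monocytes. The lower values were -3.42 for Aebp1, -2.49 for Clec3b, -1.86 for Igfbp7, -1.80 for Sparc and -2.25 for Serping1, genes that stromal and endothelial cells express. Without the large members none of the 5 was called: Aebp1 was -2.04 (edgeR, adjusted p = 0.521), Clec3b -1.01 (adjusted p = 0.733), Igfbp7 -0.91 (adjusted p = 0.731), Sparc -0.25 (adjusted p = 0.957) and Serping1 -0.025 (adjusted p = 0.999). All 5 stood higher in GAL than in WT monocytes. Sparc, for example, read 771 and 319 CPM in GAL monocytes and 130 and 77.6 in WT monocytes, and 497 and 207 in GAL members against 314 and 235 in WT members. The part of RNA from other cells in these values was not tested.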

How the results depend on the processing

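With each library left out in turn, the share of mature neutrophils (GAL minus WT, percentage points) ran from -3.64 to 2.90, the genes called in the members from 1 to 157, the genes whose effect differed from all other cells from 12 to 169, and from monocytes from 43 to 393. Such fits leave 1 library in a group, and the lone library is assumed to vary like the other group. In the set called no other-lineage UMIs, which kept 32 members of GAL replicate 1, 1 gene was called (Igfbp6). Against all other cells 11 genes were called without members above 3 medians and 11 by DESeq2; against monocytes 9 without those members, 53 with DESeq2 size factors, 54 by DESeq2 and 406 with no low-count filter. Fewer cells or more genes enter some of these fits, and the causes were not tested.

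Of the 72 named genes most kept the sign of their value: among alternatives other than leaving out a library, the sign and side of the threshold held in 685 comparisons and the sign turned in 13. With no other-lineage UMIs these were Srgn -0.11, Lyz2 -0.45, Lgals3 0.042 and Tubb5 0.31; after thinning Srgn -0.11, Lyz2 -0.13, Psmb9 0.024 and Cd177 -0.12; without members above 3 medians Srgn -0.094, Lyz2 -0.070 and Lgals3 0.055; and with no limit on Camp and Ltf H2afz 0.087 and Chil3 0.033. Leaving out a library turned the sign for Srgn (-0.21 to 0.40), Lyz2 (-0.30 to 0.33), Rac2 (-0.053 to 0.70), Ifitm1 (-0.079 to 2.06), Bhlhe40 (-0.18 to 0.49), Galt (-0.065 to 0.44), Chil3 (-1.73 to 1.18), Wfdc17 (-0.29 to 2.53), Isg15 (-0.17 to 0.68), Rsad2 (-0.38 to 0.094) and Cxcr4 (-0.35 to 0.19). For the difference from all other cells the sign turned without members above 3 medians for Cxcl13 (1.22), Cxcl9 (2.08) and Timp1 (0.84), and by DESeq2 for Hbb-bt (-0.64) and Hba-a2 (-0.70). With a library left out Hbb-bt ran from -13.98 to 5.09, Hba-a2 from -6.10 to 4.04 and Cxcl9 from -12.69 to 0.049. No paired analysis was possible because the replicate numbers follow accession order and tie no GAL library to a WT library.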
